A study of Mus musculus with 2 samples.

Results

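The integrated stress response regulators built around ATF4 and CHOP were followed in 4T1 cells, a metastatic mouse mammary carcinoma line, in 1 LY500307-treated and 1 control-treated library of ribosomal RNA-depleted total RNA. LY500307 is a synthetic agonist of estrogen receptor beta. The labels state neither its dose, nor the time of exposure, nor what the control cells received. The genes were chosen by name, with earlier results of these data known. They were the transcription factors Atf4, Atf3, Atf5 and Ddit3 (CHOP), the cofactor gene Nupr1 and the pseudokinase gene Trib3. The others were the mTORC1 inhibitors Ddit4 and Sesn2, the glutathione-degrading enzyme Chac1 and the phosphatase subunit Ppp1r15a. All 10 were matched by Ensembl ID among the 19498 genes of the table, and all 10 passed the floor for low values described next.

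The deposited values behave as gene read counts divided by a size factor for each library, and the reads behind each value could be recovered from them. Recovered reads totalled 15104003 in the LY500307-treated and 14541874 in the control-treated library. Folds are the LY500307-treated over the control-treated value with a 95% interval, taken from the exact Clopper-Pearson bounds on the share of a gene's reads that came from treated cells, which covers counting error only. Log2 ratios carry a pseudocount of 1.03, and lists are counted over genes at or above a floor, a value of 32.99 in the library where the gene is higher, which is the 40th percentile of nonzero values. With 1 library per group no difference below has a replicate check, and none was tested. Epithelial transcripts were abundant, with 14450 and 17073 reads of the keratin gene Krt8 in the LY500307-treated and control-treated libraries. Among 17 markers of leucocytes, fibroblasts and endothelium, 13 were in the table and summed to 451 and 421 reads. Only 2 reached the floor, Pdgfra with 285 and 271 reads and Cd68 with 102 and 81. Ptprc, the pan-leucocyte marker, had 4 and 2. In control-treated cells Cdh5 and Acta2 were at 0.

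In the integrated stress response, kinases that sense amino acid shortage, unfolded protein in the endoplasmic reticulum, viral RNA or heme deficiency phosphorylate the translation initiation factor eIF2 on its alpha subunit. General translation then slows while the mRNA of ATF4, which carries upstream reading frames, is translated more. ATF4, a bZIP transcription factor, pairs with C/EBP proteins and other bZIP factors on C/EBP-ATF response elements and induces CHOP, ATF3, TRIB3, CHAC1 and enzymes and transporters of amino acid supply. CHOP and ATF4 together induce Ppp1r15a (GADD34), which returns phosphatase to eIF2 and ends the response. ATF4 activity is thus set largely by translation, so the amount of Atf4 mRNA is only a part of it. In tumour cells the pathway is known as an adaptation to nutrient shortage and hypoxia that can also lead to cell death.

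The C/EBP-ATF response element, searched as TGATGNAA on both strands from 250 bases before to 50 bases after each RefSeq start site (GRCm38.p6, not the build named for the reads), lay in the promoters of 4 of the 10 genes, Atf3, Chac1, Nupr1 and Trib3, against 3.97% of all 32851 promoters in the RefSeq table. The stretches around these sites are shown because ATF4 is known to act through this element, with the match in capitals. In each the reverse complement of the motif reads along the gene's strand. The match began 110 bases before the start site in Atf3 and likewise in Nupr1, 193 before it in Chac1, and at base 15 of the transcribed part in Trib3.
Atf3, chr1:191183400-191183479, minus strand: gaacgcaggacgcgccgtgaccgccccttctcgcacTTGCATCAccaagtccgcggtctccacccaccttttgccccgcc
Nupr1, chr7:126625537-126625616, minus strand: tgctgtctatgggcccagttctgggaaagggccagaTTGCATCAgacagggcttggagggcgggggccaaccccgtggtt
Chac1, chr2:119351013-119351092, plus strand: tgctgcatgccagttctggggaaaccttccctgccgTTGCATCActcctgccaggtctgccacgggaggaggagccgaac
Trib3, chr2:152344028-152344057, minus strand: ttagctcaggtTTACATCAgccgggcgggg

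The cyclic AMP response element TGACGTCA, which CREB and ATF dimers bind and which is its own reverse complement, was in the window of 1 of the 10 genes, Ppp1r15a, against 1.79% of all promoters. It began 12 bases before the start site and is shown in capitals.
Ppp1r15a, chr7:45526269-45526316, minus strand: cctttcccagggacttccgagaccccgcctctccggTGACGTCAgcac
The core TGACG, which the full element contains, was in 5 of the 10 genes and in 20.8% of all promoters. The CCAAT box was in 7 of the 10 and in 37.4% of all promoters, and the GC box GGGCGG in 7 and in 35.7%. The endoplasmic reticulum stress element, CCAAT and CCACG separated by a fixed spacer, was in none of the 10 windows and in 0.119% of all promoters. The 10 genes have 11 promoters in the table, since Atf5 has a pair. A match is a description of the letters, and genes with and without the C/EBP-ATF element were found at both ends of the ratios below.

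Transcripts of 9 of the 10 regulators were lower in LY500307-treated cells, and Atf3 was level with the control. On the deposited values Trib3 stood lowest, at 0.587 of the control value, followed by Ddit4 at 0.618 and Chac1 at 0.665. These 3 were at least 1.5-fold lower, against 1.97% of the 11384 genes at or above the floor. With the trend in transcript GC content and length described below removed, none of the 3 was 1.5-fold lower and 8 of the 10 lay below 0, Atf5 being the gene whose sign turned. None of the 10 was 1.5-fold higher, against 1.8% of all genes. The median log2 ratio of the 10 was −0.42, against −0.02 over all genes. For 9 of the 10 the counting interval lay wholly below 1, as it did for 23.7% of all genes. Of all genes, 52.8% had a log2 ratio below 0 and 47.2% above 0. Because the 10 were chosen with earlier results of these data known, these comparisons with all genes are a description and no test of enrichment.

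**Figure D1:**
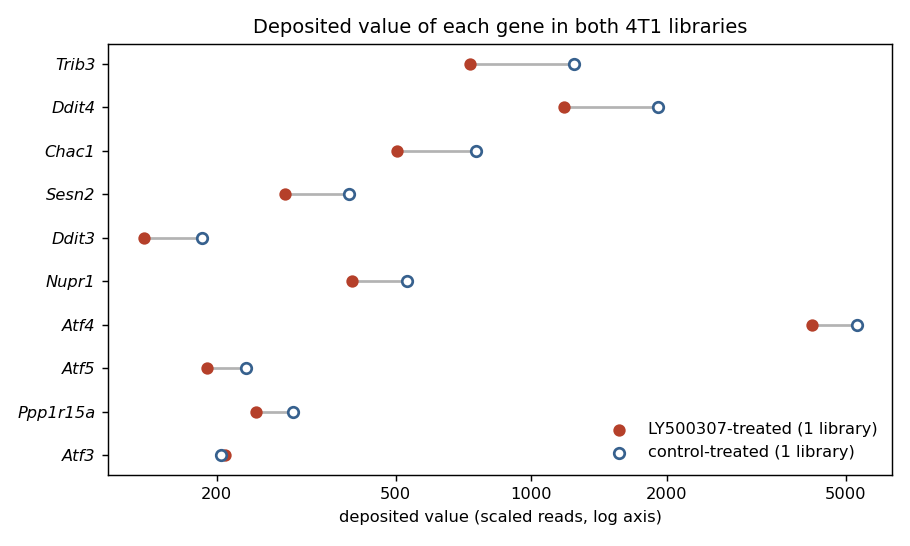
Deposited value (scaled reads, log axis) of each of the 10 genes in the LY500307-treated library (filled) and the control-treated library (open), 1 library each. The filled point lies left of the open one for 9 genes and the pair nearly coincide for Atf3, at 209 and 204.

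Atf4 itself had 4340 reads in LY500307-treated cells, against 5132 in control-treated cells. It stood at 0.796 of the control value (95% counting interval 0.765 to 0.829), a log2 ratio of −0.33, which ranked 1206th from the lowest of 11384 genes. Atf4 was by far the most abundant of the 10 per transcript length and supplied 52.0% of their summed reads in LY500307-treated and 47.9% in control-treated cells. Ddit3, which encodes the pro-apoptotic factor CHOP, had the fewest reads of the 10, with 142 reads in LY500307-treated against 180 in control-treated cells. Its fold was 0.743, with a wide interval of 0.592 to 0.931. Atf5, a relative of ATF4 that is likewise controlled by translation and takes part in the mitochondrial stress response, had 196 reads against 226 and a fold of 0.817 (0.671 to 0.993), whose interval only just excluded 1.

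Atf3, a bZIP factor induced by many stresses and often a repressor, departed from the rest. It had 215 reads in LY500307-treated and 198 in control-treated cells, a fold of 1.02 (0.839 to 1.246), so no difference was detectable at this depth. Its interval did not overlap those of Atf4, Trib3, Ddit4 or Chac1, but it overlapped those of Sesn2, Ddit3, Nupr1, Atf5 and Ppp1r15a. With the trend in GC content and length removed, the log2 ratio of Atf5 was also above 0, at 0.08 against 0.13 for Atf3. Summed over the 4 transcription factors, reads were 4893 in LY500307-treated and 5736 in control-treated cells, a fold of 0.803 (0.773 to 0.835), in which Atf4 supplied most reads.

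The stress-induced cofactor gene Nupr1, which encodes a small chromatin-associated protein, had 412 reads in LY500307-treated against 515 in control-treated cells and stood at 0.753 of the control value (0.660 to 0.859). Trib3 encodes a pseudokinase that binds ATF4 and CHOP and restrains them. It had 752 reads in LY500307-treated against 1207 in control-treated cells, which gave deposited values of 730 and 1244 and a fold of 0.587 (0.535 to 0.643). Its log2 ratio of −0.77 was the lowest of the 10 and ranked 83rd from the lowest of all 11384 genes. The interval of Trib3 lay below that of Atf4 and also below those of Nupr1, Atf5, Ppp1r15a and Atf3.

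Both inhibitors of mTORC1, the kinase complex that drives growth when amino acids are plentiful, were lower. Ddit4 (REDD1), which acts through the TSC complex, had 1220 reads in LY500307-treated against 1858 in control-treated cells, a fold of 0.618 (0.575 to 0.665), and its log2 ratio of −0.69 ranked 128th from the lowest. Sesn2, which encodes the leucine-binding sestrin, had 292 reads against 381, a fold of 0.722 (0.617 to 0.843). Ddit4 was the second most abundant of the 10 genes per transcript length in both libraries.

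Chac1, whose product cleaves glutathione in the cytosol and which is among the most sensitive markers of ATF4 activity, had 518 reads in LY500307-treated against 733 in control-treated cells. Its fold was 0.665 (0.593 to 0.746) and its log2 ratio −0.59, just past the 1.5-fold line. With a pseudocount of 10, with CPM of recovered reads or after centring on the median of all genes it missed that line, and 2 of the 10 genes were then 1.5-fold lower. Ppp1r15a, the feedback subunit that directs dephosphorylation of eIF2, had 252 reads against 287 and stood at 0.827 of the control value (0.695 to 0.983). The 6 genes other than the transcription factors summed to 3446 reads in LY500307-treated and 4981 in control-treated cells, most of them from Ddit4 and Trib3. The fold of this sum was 0.651 (0.624 to 0.680), which lay below the interval of the 4 transcription factors. Single genes of these groups were interleaved, with Ppp1r15a above Atf4, at 0.796, and Ddit3, at 0.743, below Nupr1, at 0.753.

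**Figure D2:**
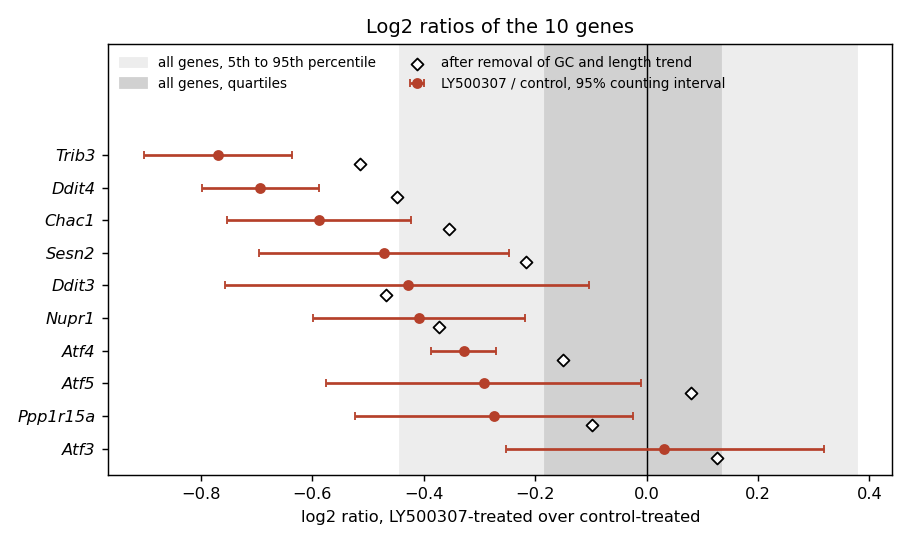
Log2 ratio of LY500307-treated over control-treated values for the 10 genes (points) with 95% counting intervals (bars), and the log2 ratio once a trend in GC content and length was taken out (diamonds). Bands give the quartiles and the 5th to 95th percentiles of all 11384 genes. Trib3 to Chac1 lie at −0.77 to −0.59, below the 5th percentile of −0.44, and Atf3 sits at 0.03.

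Ratios of some of the 10 genes differed by more than counting error. Of the 45 pairs among them, 12 had counting intervals that did not overlap, and each of the 12 involved Trib3, Ddit4, Chac1 or Atf4. The share of such pairs among all genes was not computed, so the count is not shown to be particular to these genes. Pairs were not compared with the trend in GC content and length removed. The level per kilobase of the longest transcript was led by Atf4, with deposited values of 2086 per kilobase in LY500307-treated and 2620 in control-treated cells. Ddit4 followed with 675 and 1091, Trib3 with 360 and 614 and Chac1 with 307 and 461. The order of these 4 was the same in both libraries, with counting intervals of their levels that did not overlap, although those of Trib3 and Chac1 nearly met in LY500307-treated cells. Nupr1, at 163 and 217, and Ddit3, at 142 and 191, did not differ beyond counting error in either library. Atf5, Sesn2, Ppp1r15a and Atf3 lay between 81.5 and 105 in LY500307-treated cells and between 103 and 128 in control-treated cells. Atf3 had the lowest level of the 10 per kilobase in control-treated cells, at 103, and ranked above 3 others in LY500307-treated cells, at 105, but the intervals of these low genes mostly overlapped.

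Log2 ratios of all genes moved with transcript GC content, and 9 of the 10 genes had a GC content above the median of all genes. Over 11349 genes of the nuclear genome that reached the floor, the Spearman correlation across genes between log2 ratio and GC content was −0.59, a description with no p since genes are not replicates. Median log2 ratios were 0.18 in the most GC-poor decile of genes and −0.29 in the most GC-rich. GC content was 58.2% for Trib3, 57.9% for Ddit4, 57.4% for Chac1 and 58.7% for Sesn2, against a median of 49.6% over all genes. After a trend in GC content and length was removed, none of the 10 was 1.5-fold lower, against 0.976% of all genes, and 8 lay below 0, against 50% of all genes. The median log2 ratio of the 10 was then −0.29, against 0.00 over all genes, and Trib3, at −0.52, lay at the 1.44th percentile of all genes.

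Single genes moved by unequal amounts with the trend. Ddit3, the only one of the 10 with a GC content below the all-gene median, at 45.6%, had a log2 ratio of −0.43 as deposited and −0.47 with the trend removed, the second lowest of the 10. Nupr1, at 49.9% GC, had −0.41 and −0.37. Ddit4 had −0.69 and −0.45, Chac1 −0.59 and −0.35, Sesn2 −0.47 and −0.22, and Atf4 −0.33 and −0.15. Ppp1r15a had −0.27 and −0.10. The sign turned for Atf5, which has the highest GC content of the 10 at 61.7%, with −0.29 as deposited and 0.08 with the trend removed. Atf3 had 0.03 and 0.13.

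**Figure D3:**
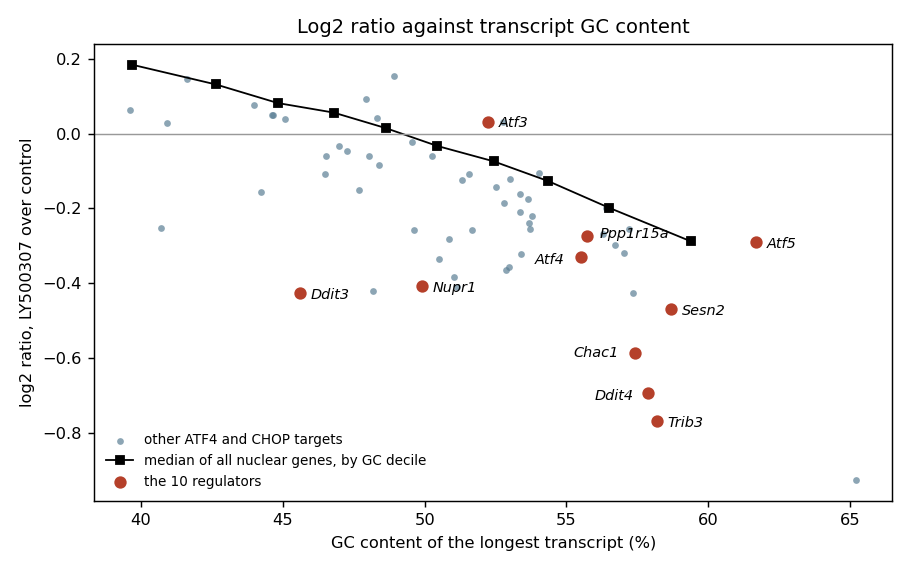
Log2 ratio (LY500307-treated over control-treated) against the GC content of the longest transcript, for the 10 genes (large points), other ATF4 and CHOP targets (small points) and the median of all nuclear genes in each GC decile (squares). The decile medians run downward, between 0.18 and −0.29. The fitted trend in GC content and length is not drawn, and 8 of the 10 genes lie below the value it gives for them.

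Exons of 3 of the 10 genes overlap those of a gene on the opposite strand in the GENCODE M21 annotation, and it is not stated whether the counting used strand, so reads in the overlap cannot be told apart. Ddit3 shares 68 exonic bases with Mars, a tRNA synthetase gene that had 3318 reads in LY500307-treated and 3492 in control-treated cells. Atf5 shares 82 with Nup62, a nuclear pore gene with 2092 and 2235 reads. Ppp1r15a shares 12 with Tulp2, which had 2 and 0 reads. Without these 3 genes the median log2 ratio of the other 7 was −0.47, and the same 3 genes, Trib3, Ddit4 and Chac1, were 1.5-fold lower.

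Relatives of the regulators that are not core members of the response did not stand lower as a group. Of 15 paralogs listed, 14 were in the table and 13 at or above the floor. Of these, 6 lay below 0 and 1 was 1.5-fold lower, against 52.8% and 1.97% of all genes. Their median log2 ratio was 0.06. The paralogs were less GC-rich than the 10 regulators, with a median of 47.3% against 56.6%. With the trend removed their median log2 ratio was 0.04, against −0.29 for the regulators, and 5 of the 13 lay below 0, against 50% of all genes. Trib1, which targets C/EBP alpha for degradation, had 656 reads in LY500307-treated against 722 in control-treated cells, a fold of 0.855 (0.768 to 0.952), and the interval of Trib3 lay below it. Trib2, its close relative, had 98 against 88 and a fold of 1.05 (0.778 to 1.41). Trib3 made up 68.0% of the family's summed level per kilobase in LY500307-treated cells, against 76.0% in control-treated cells.

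Sesn2 and Sesn3 lay on opposite sides of the control value. Sesn3 had 590 reads in LY500307-treated against 419 in control-treated cells, a fold of 1.33 (1.17 to 1.51), while Sesn1 had 209 against 189, a fold of 1.04 (0.851 to 1.27), and the interval of Sesn2 lay below both. Reads of the 3 sestrins together were 1091 against 989, a fold of 1.04 (0.952 to 1.13), so the lower Sesn2 stood beside a family sum with no detectable difference. Sesn2 held 41.3% of the family's level per kilobase in LY500307-treated and 53.4% in control-treated cells. Chac2, the constitutive relative of Chac1, had 155 reads against 122, a fold of 1.20 (0.937 to 1.53), with an interval above that of Chac1. With the trend removed, log2 ratios were −0.22 for Sesn2 and −0.35 for Chac1, against 0.27 for Sesn3 and 0.08 for Chac2, and that of Trib1 was −0.12.

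Ppp1r15b, the constitutive counterpart of Ppp1r15a, had 2514 reads in LY500307-treated and 2436 in control-treated cells, a fold of 0.972 (0.919 to 1.03), and its interval overlapped that of Ppp1r15a. Jdp2, a bZIP repressor closely related to Atf3, was the paralog that stood lowest, with 546 against 796 reads and a fold of 0.646 (0.578 to 0.721). Its log2 ratio was −0.63 as deposited and −0.42 with the trend removed, when no paralog was 1.5-fold lower. The intervals of Atf3 and Jdp2 did not overlap, with Atf3 at 1.02.

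**Figure D4:**
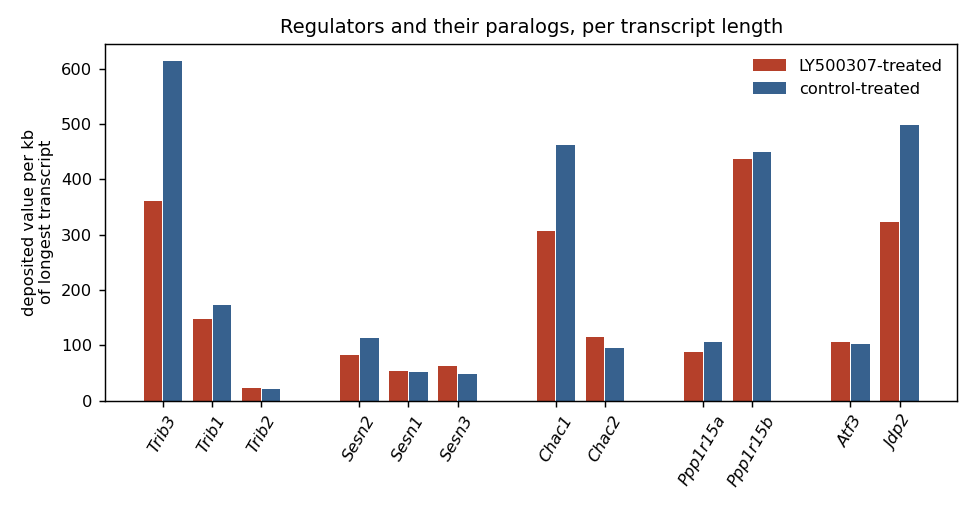
Deposited value per kilobase of the longest transcript for 5 regulators and their paralogs, with LY500307-treated (red, left) and control-treated (blue, right) bars, 1 library each. Trib3, Chac1, Sesn2 and Jdp2 are lower in LY500307-treated cells, at 360, 307, 81.5 and 322 against 614, 461, 113 and 499. Trib1 and Ppp1r15a are lower by smaller amounts, at 147 and 87.0 against 172 and 105. Sesn3 is higher. The counting intervals of the folds of Chac2, Trib2, Sesn1, Ppp1r15b and Atf3 include 1.

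Upstream of ATF4, transcripts of the eIF2 alpha kinases and their sensors stood close to the control. Of 8 genes, all at or above the floor, 4 lay below 0, against 52.8% of all genes, and the median log2 ratio was −0.05. None was 1.5-fold apart, against 1.97% of all genes lower and 1.8% higher. Eif2ak3 (PERK), the kinase of the endoplasmic reticulum, had 152 reads in LY500307-treated and 154 in control-treated cells, a fold of 0.929 (0.738 to 1.17). Eif2ak4 (GCN2), the amino acid sensor, had 642 against 551 and a fold of 1.10 (0.977 to 1.23), and Eif2ak1 (HRI), the heme sensor that also relays mitochondrial stress, 610 against 635 and 0.904 (0.808 to 1.01). Eif2ak2 (PKR), the sensor of double-stranded RNA, had 887 against 754 and a fold of 1.11 (1.004 to 1.22). It was the 1 gene of the list with an interval wholly above 1, against 18.1% of all genes. For 2 genes the interval lay wholly below 1, against 23.7%, Dele1 (0.885, 0.809 to 0.969) and Gcn1l1 (0.890, 0.858 to 0.923). With the trend removed, log2 ratios were 0.04 for Eif2ak2, −0.14 for Dele1 and 0.02 for Gcn1l1. Transcript levels of kinases carry no information on their activity or on phosphorylation of eIF2. The 13 genes of eIF2, its exchange factor eIF2B, related initiation factors and the phosphatase core had a median log2 ratio of −0.01, with none 1.5-fold apart.

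The bZIP partners with which ATF4 and CHOP dimerise, together with related AP-1, MAF and CREB3 factors, were mostly lower. Of 23 listed, 15 were at or above the floor and 12 of these lay below 0, against 52.8% of all genes. Their median log2 ratio was −0.27, and 2 were 1.5-fold lower, against 1.97% of all genes. Cebpb, which forms heterodimers with both ATF4 and CHOP, had 539 reads in LY500307-treated against 860 in control-treated cells, a fold of 0.590 (0.529 to 0.658). Cebpd had 80 against 119 reads and a fold of 0.633 (0.471 to 0.847). Cebpg, another ATF4 partner, had 677 against 602 and a fold of 1.06 (0.947 to 1.18). Below the floor, and so not counted, the AP-1 gene Fos had 28 reads against 12, a fold of 2.20 (1.08 to 4.74). Batf2, also below the floor, had 0 against 6, with an interval of 0 to 0.80. The list is GC-rich, with a median of 54.9%, and after removal of the trend its median log2 ratio was −0.06, with Cebpd alone 1.5-fold lower at −0.59 and Cebpb at −0.36.

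Other ATF4 and CHOP targets were lower by smaller amounts. Of 59 listed, 51 were at or above the floor, and 40 of these lay below 0, against 52.8% of all genes. The counting interval lay wholly below 1 for 32 and wholly above 1 for 2, against 23.7% and 18.1% of all genes. Their median log2 ratio was −0.16 as deposited and −0.10 with the trend removed, when 44 lay below 0, against 50% of all genes. Bbc3, which encodes the pro-apoptotic protein PUMA and is also a p53 target, was the only one 1.5-fold lower, against 1.97% of all genes. Bbc3 had 108 reads in LY500307-treated against 194 in control-treated cells and a fold of 0.524 (0.410 to 0.667). With the trend removed it stood at −0.53 on the log2 scale.

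Next to Bbc3, the lowest ratios belonged to Shmt2, the mitochondrial serine hydroxymethyltransferase (0.744, interval 0.719 to 0.770), Eif4ebp1, a translation repressor that mTORC1 controls (0.747, 0.713 to 0.783), the aminotransferase gene Gpt2 (0.752, 0.683 to 0.829), Pck2, the mitochondrial PEP carboxykinase (0.766, 0.708 to 0.828), and Slc1a4, a neutral amino acid transporter (0.777, 0.7004 to 0.861). At the upper end were the death receptor gene Tnfrsf10b (1.11, 0.983 to 1.26), the oxidoreductase gene Ero1l (1.11, 1.04 to 1.18), the transporter gene Slc7a6 (1.07, 0.992 to 1.15) and Eprs, the glutamyl-prolyl-tRNA synthetase (1.06, 1.02 to 1.09). Tnfrsf10b and Ero1l are known as CHOP targets. With the trend removed, Ero1l stood at 0.00 on the log2 scale and Eprs, with its sign turned, at −0.05, against 0.15 and 0.08 as deposited. Shmt2 had −0.43 as deposited and −0.20 with the trend removed. The secreted stress hormones Fgf21 and Gdf15 were below the floor, with 0 and 1 reads in LY500307-treated cells and 3 reads each in control-treated cells, where no difference was detectable.

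**Figure D5:**
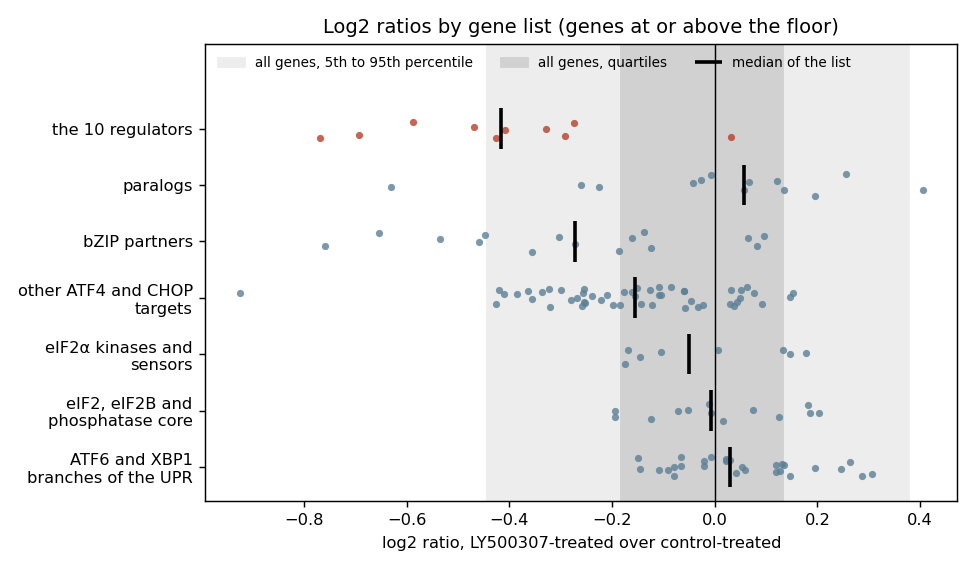
Log2 ratios (LY500307-treated over control-treated) of single genes at or above the floor in 7 lists, with the median of each list as a black bar and bands for the quartiles and the 5th to 95th percentiles of all genes. As deposited, the 10 regulators have the lowest median, −0.42, ahead of the bZIP partners at −0.27, and the ATF6 and XBP1 branches lie at 0.03. With the trend in GC content and length removed (not drawn), medians were −0.29 for the regulators, −0.10 for other targets and −0.06 for bZIP partners.

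Genes of the ATF6 and XBP1 branches of the unfolded protein response, the arm of endoplasmic reticulum stress that builds chaperones, did not stand lower with the regulators. Of 30 listed, 29 were at or above the floor and 18 of these lay above 0, against 47.2% of all genes. None was 1.5-fold apart, against 1.97% of all genes lower and 1.8% higher. The median log2 ratio was 0.03 as deposited and 0.06 with the trend removed. At the top were Ssr3, a translocon subunit (fold 1.24, 1.20 to 1.28), and the chaperone genes Hsp90b1 (1.22, 1.19 to 1.252) and Canx (1.20, 1.17 to 1.23). With the trend removed, log2 ratios were 0.17 for Ssr3, 0.16 for Hsp90b1 and 0.13 for Canx, against 0.31, 0.29 and 0.26 as deposited. Edem1 (0.902, 0.815 to 0.998) and Sec61b (0.904, 0.828 to 0.986) were lowest. With the trend removed, Edem1 had a log2 ratio of −0.24 and Sec61b one of 0.07.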

How the data were processed

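The deposited table gives 1 signal per gene and library, with no unit stated, for 1 LY500307-treated and 1 control-treated library. Total RNA was isolated with Trizol, and stranded libraries followed removal of ribosomal RNA, per the labels' protocols. Per the submitters' processing notes, CASAVA 1.8, Bowtie2 and mm9 were used, with no role given. No source used here names the counter, annotation or normalization. Each deposited column holds whole multiples of 1 step, 0.970 in the LY500307-treated and 1.03 in the control-treated library. Division by the step gave a whole number, within 0.01, for 99.96% of LY500307-treated and 99.95% of control-treated values, and these are the recovered reads. No count model was fitted, because a single library per group gives no spread to estimate. Intervals may be too narrow, since the reads carry no molecular identifiers and PCR copies count as separate reads.

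Symbols, transcript lengths and GC contents came from GENCODE M21, matched by ID for 19443 of 19498 genes, and promoters from RefSeq. The trend was a robust regression of the log2 ratio on cubic splines of GC content and log2 length with 5 degrees of freedom each, held at the 1st and 99th percentiles (Python 3.11.15, SciPy 1.17.1, statsmodels 0.14.6). Interval and read recovery were tried on simulated counts with counting error alone and a known step, as both methods assume. That run checks the code and cannot show how well the intervals hold for the deposited values. The 10 genes and all lists were chosen with earlier results of these data known. Named genes were the 10, any gene of the paralog, kinase, eIF2 and bZIP lists, and, of the target and unfolded protein response lists, up to 6 lowest and 4 highest ratios at or above the floor. Fgf21, Gdf15, Mars, Nup62, Tulp2 and the markers were named beside these. Alternatives covered the pseudocount, scaling, centring, trend, floor and fold.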

Additional observations from a re-analysis of the deposited data

How the results depend on the processing

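The median log2 ratio of the 10 regulators was −0.42 as reported and −0.47 to −0.29 under the other settings. The 3 regulators at least 1.5-fold lower became 0 once the GC and length trend was removed, 7 with the threshold lowered to a ratio of 5 to 4 and 0 at 2-fold. They were 3 without a floor, with the floor at the 60th percentile and without a pseudocount, and 2 with a pseudocount of 10, with CPM and after centring. No regulator was higher by the chosen fold under any of these settings. The 1 other ATF4 and CHOP target that was 1.5-fold lower became 0 after removal of the trend, with the floor at the 60th percentile and at 2-fold, 8 with the threshold at a ratio of 5 to 4 and 4 without a floor, where 3 of the 4 had at most 3 reads in either library. Removal of the trend moved 52 of 110 single genes beyond their counting intervals, and the pseudocount, scaling and centring moved none. The settings without a pseudocount and without overlapping genes were chosen after seeing the data. No paired analysis was possible because each group has 1 library. Depth limits Ddit3 most, which had the fewest reads of the 10, 142 and 180, and the spread between cultures is unknown.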
